A study of Homo sapiens with 3 samples.

Results

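Cytosolic ribosomal proteins were taken as the protein-coding genes whose symbol is RPL or RPS with a number and an optional closing A, L or X, together with RPLP0, RPLP1, RPLP2 and RPSA. The counts came from A375, a human melanoma line in long-standing laboratory use, and the table held 81 such genes among its 58037 genes and its 19950 protein-coding genes. They comprised 49 genes of the large ribosomal subunit and 32 of the small subunit, and each was measured in 3 libraries of poly(A) RNA. The control library came from A375 cells in serum-free DMEM. The YA library (YA-A375) came from cells given the secretome of young adipocytes, and the OA library (OA-A375) from cells given the secretome of old adipocytes. The exposure was 24 h by the study's design and methods, while the treatment protocol allows up to 48 h. Adipocytes were differentiated in culture from donor preadipocytes, and the secretome was serum-free DMEM that they had conditioned, with the donor behind each secretome not given in the sources used here. All 3 groups shared the cell line and the serum-free medium, each group was 1 library, and both secretome comparisons rest on the 1 control library.

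The cytosolic ribosome is built from ribosomal RNA and one copy of most ribosomal proteins, except for the stalk proteins RPLP1 and RPLP2, which are present in several copies. The small subunit decodes the mRNA and the large subunit joins the amino acids. The transcripts of these proteins usually begin with a C followed by a run of pyrimidines, the 5′ terminal oligopyrimidine (TOP) motif, through which mTORC1 and the RNA-binding protein LARP1 control their translation and stability. Several elongation factors and the host genes of small nucleolar RNAs (snoRNAs) begin in the same way.

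The libraries held between 18089008 and 21448195 counts, and 79 of the 81 ribosomal protein genes passed a mean of 20 normalised counts, that is, counts divided by a median-of-ratios size factor. The other 2 were RPL3L, the form of RPL3 typical of heart and skeletal muscle, with 3, 8 and 2 counts in control, YA and OA, and RPL10L, a testis-enriched copy of RPL10, with 5, 8 and 2 counts. With 1 library per group no test between groups was possible. A gene is called higher or lower where its ratio of normalised counts, each with 1 added, reached 1.2-fold, and bracketed values are 95% intervals that cover counting error only. In bulk RNA, fewer cells of a type and less RNA per cell cannot be told apart. Of 12 melanoma markers 10 had a count in every library and 6 passed the mean of 20. In YA 2 of these 6 were called higher and 2 lower, and in OA 0 higher and 3 lower. SOX10, a defining melanoma marker, was listed at 0 in all 3 libraries, for a reason that was not tested. Of 10 adipocyte markers, LEP and CIDEA were at 0 in all 3 libraries and ADIPOQ had 1, 0 and 0 counts in control, YA and OA, but PPARG had 1608, 1964 and 1530, LPL 353, 583 and 30, and CIDEC 6, 31 and 36. The summed normalised counts in control, YA and OA were 31562, 41164 and 27169 for the melanoma markers and 1899, 2490 and 1841 for the adipocyte markers, while those of 9 fibroblast markers were 712, 904 and 654 and those of 5 leukocyte markers 146, 145 and 102. Fibroblast markers moved in different directions, DCN with 13, 138 and 24 counts and PDGFRA with 76, 20 and 51. Among leukocyte markers CD3E was at 0 in all 3 libraries and LYZ had 148, 143 and 86 counts. The part of such markers in the results was not tested.

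The start sites show the feature that most ribosomal protein genes share and the rule did not use. RefSeq start windows on GRCh38.p14 were found for 64 of the 81 genes, and 46 of these (71.9%) had at least 1 start at which C was followed by at least 4 further pyrimidines. Of all 14516 protein-coding genes with such a window, 919 (6.33%) had one. The following stretches run from 10 bases before the start to 20 bases from it, with the pyrimidine run in capitals. They were chosen to set stalk proteins and genes at both ends of the fold changes beside translation factors, TPT1 and an snoRNA host that are described later.
RPLP0 (chr12:120201092-120201121, minus strand): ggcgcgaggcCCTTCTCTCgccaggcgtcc
RPLP2 (chr11:809957-809986, plus strand): tcggcgccttCCTTTTCCTCCCTgtcgcca
RPSA (chr3:39406710-39406739, plus strand): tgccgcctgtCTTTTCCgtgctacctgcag
RPS6 (chr9:19380217-19380246, minus strand): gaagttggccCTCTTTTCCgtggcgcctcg
RPL21 (chr13:27251548-27251577, plus strand): ccgcctctttCCTTTCggccggaaccgcca
RPS23 (chr5:82278335-82278364, minus strand): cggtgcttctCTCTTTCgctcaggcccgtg
RPS27 (chr1:153990752-153990781, plus strand): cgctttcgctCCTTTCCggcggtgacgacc
RPS27L (chr15:63157458-63157487, minus strand): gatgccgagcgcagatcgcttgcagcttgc
RPS26 (chr12:56041908-56041937, plus strand): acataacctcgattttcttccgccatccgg
EEF1A1 (chr6:73521013-73521042, minus strand): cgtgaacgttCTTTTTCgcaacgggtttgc
EEF2 (chr19:3985444-3985473, minus strand): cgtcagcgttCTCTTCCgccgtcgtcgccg
TPT1 (chr13:45341164-45341193, minus strand): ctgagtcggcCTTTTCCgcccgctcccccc
SNHG12 (chr1:28581854-28581883, minus strand): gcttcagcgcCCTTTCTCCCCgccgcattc
The runs shown were 6 bases in RPL21, 7 in RPSA, RPS23, RPS27, EEF1A1, EEF2 and TPT1, 9 in RPLP0 and RPS6, 11 in SNHG12 and 13 in RPLP2. RPS26 and RPS27L had no such run at their listed start, and other starts of these genes were not examined. Of 2 further motifs searched on both strands of the 300-base windows, CCGGAAG occurred in 23 of the 64 ribosomal protein genes (35.9%). It occurred in 16.7% of all genes with a window and in 22.2% of the other protein-coding genes past the filter described below. TATAAA occurred in 6 of the 64 (9.38%), in 12.1% of all genes with a window and in 8.23% of the others past the filter, so that its share lay between those of the 2 backgrounds.

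Ribosomal protein transcripts took a smaller part of both secretome libraries than of the control. The 81 genes held 6.57% of all control counts (Wilson interval 6.56 to 6.58). Their share was 6.04% of the YA library (6.03 to 6.05) and 5.40% of the OA library (5.39 to 5.41). The order control, YA, OA held for both subunits. The large subunit genes held 4.0%, 3.70% and 3.30% of the counts in control, YA and OA, and the small subunit genes 2.57%, 2.33% and 2.10%. Within the ribosomal protein counts the large subunit share was 60.9% for control, 61.3% for YA and 61.1% for OA, so the balance between subunits moved by under 1 percentage point. The mitochondrial ribosomal proteins, nuclear-encoded parts of a separate ribosome, did not follow this order, with 0.400%, 0.379% and 0.416% of counts in control, YA and OA. How far the differences between libraries exceed the spread between cultures could not be measured.

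**Figure D1:**
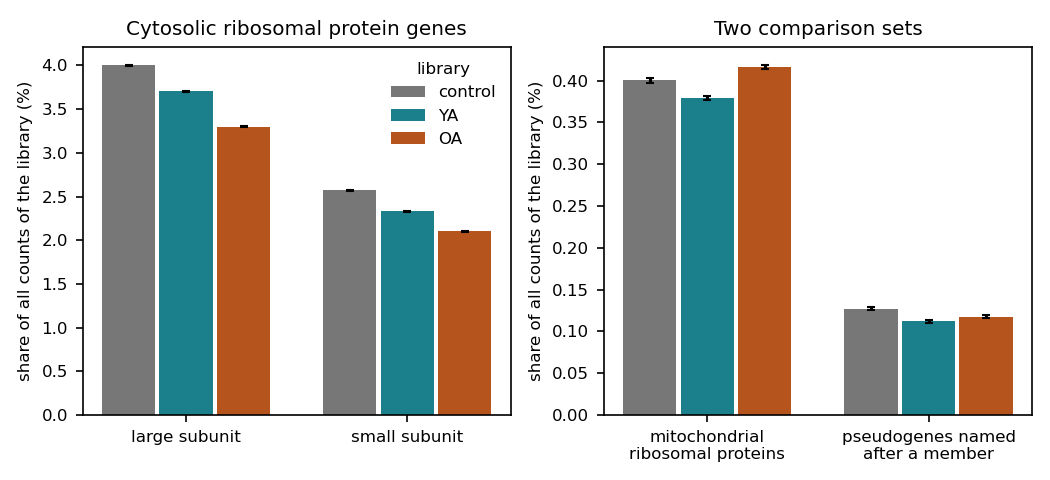
Share of all counts in each library (percent, bars from 0, whiskers 95% Wilson intervals) for large and small subunit genes on the left and for mitochondrial ribosomal protein genes and ribosomal protein pseudogenes on the right. The cytosolic genes are highest in control and lowest in OA for both subunits (4.0%, 3.70% and 3.30% for the large), whereas the mitochondrial set is highest in OA at 0.416%.

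Levels between genes were compared per kilobase of coding sequence. The median of the 79 genes was 27628 normalised counts per kilobase in control, and it was 25136 in YA against 22915 in OA. By this measure RPL41, which encodes the shortest ribosomal protein, was the highest in every library. It had 112234, 100321 and 99767 per kilobase in control, YA and OA. Its coding sequence is 75 bases in a transcript of 584, so its place rests on the choice of coding length. Its normalised counts were 8418, 7524 and 7483, against 31630, 28639 and 27025 for RPLP1. RPLP1, a stalk protein that draws elongation factors to the ribosome, was next with 92485, 83739 and 79021, and RPS6, the substrate of the S6 kinases, followed with 84167, 73147 and 67132. At the other end, RPL17 had 196 per kilobase in control, RPL36A 199 and RPS10 348, while the lower quartile of the genes was 18213. These 3 genes share exon sequence with the read-through genes RPL17-C18orf32, RPL36A-HNRNPH2 and RPS10-NUDT3 in GENCODE 29, which were listed at 0 in all 3 libraries, so their counts are uncertain. Other genes on either strand overlapped 35.3% of the exon bases of RPL17, 8.40% of those of RPL36A and 39.4% of those of RPS10. RPL26, with 1791 per kilobase in control, shares exon sequence with AC135178.2.

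YA-A375 showed a slight lowering spread over nearly all ribosomal protein genes. Against control 72 of the 79 genes had a ratio below 1 in YA, where 53.1% of all 14413 genes tested did. So did 206 of 281 other protein-coding genes with a mean of at least 1000 normalised counts and transcripts of up to 1000 bases. The median log2 fold change of the ribosomal protein genes was −0.14, with quartiles of −0.19 and −0.08, beside −0.02 over all genes tested. Few reached 1.2-fold. In this comparison 1 of 79 (1.27%) was called higher against a background of 17.4% of genes tested, and 7 of 79 (8.86%) were called lower against a background of 16.4%. Among 4621 other genes with a mean of at least 1000, the shares were 8.83% higher and 8.33% lower. The summed counts of the 81 genes were 0.915 times those of control (0.913 to 0.917).

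The lowest ratio in YA was that of RPS23, a protein of the decoding centre, with 3236, 2522 and 2311 normalised counts in control, YA and OA. Its ratio to control was 0.779 (0.741 to 0.820) in YA and 0.714 (0.676 to 0.755) in OA. RPL7, an RNA-binding protein of the large subunit, had 19024, 15334 and 14306 normalised counts and a ratio of 0.806 (0.789 to 0.823) in YA. RPS3A had 7642, 6240 and 5980 normalised counts, with a ratio of 0.816 in YA. RPS25, which takes part in initiation at internal ribosome entry sites, had 26135, 21407 and 20374 and a ratio of 0.819 in YA. In these 4 genes the control library was the highest and OA the lowest. RPL22, an RNA-binding protein of the large subunit, had 7744, 6363 and 6170 normalised counts, with a ratio of 0.822 in YA, and RPL23 had a ratio of 0.826. The remaining gene called lower, RPS10, rests on 194, 154 and 198 normalised counts in control, YA and OA, and its interval in YA reached from 0.642 to 0.979.

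RPL36A was the gene called higher in YA. It had 84.8, 238 and 138 normalised counts in control, YA and OA, giving ratios of 2.81 (2.20 to 3.61) and 1.63 (1.23 to 2.16). It stood apart from every other ribosomal protein gene in YA, on few counts and with exon sequence shared with another gene. RPL36AL, its copy on another chromosome, had 2501, 2178 and 2804 normalised counts, lower in YA than in control by a ratio of 0.871 and higher in OA by 1.12, neither past 1.2-fold. Next in YA came RPL17 with 108, 126 and 126 normalised counts and a ratio of 1.16 (0.897 to 1.5), and RPL39L, a testis-enriched copy of RPL39, with 173, 200 and 208 and a ratio of 1.16 (0.944 to 1.42). For both, the interval included 1. RPLP2 followed with 1.04 (1.01 to 1.07), then RPL28 with 1.01 (0.990 to 1.02).

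In OA-A375 the lowering was deeper, and about every second ribosomal protein gene passed 1.2-fold. Against control 73 of 79 genes had a ratio below 1, where 49.1% of all genes tested did, and the median log2 fold change was −0.25, beside 0.01 over all genes tested. In OA 38 of 79 (48.1%) were called lower against a background of 21.5%, and 2 of 79 (2.53%) higher against a background of 21.1%. Among 4621 other genes with a mean of at least 1000, the shares were 12.1% lower and 15.5% higher. The summed counts of the ribosomal protein genes were 0.826 times those of control (0.824 to 0.828). The called group was not set off from the rest: RPL29 was just inside at a ratio of 0.833 and RPL28 just outside at 0.837.

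**Figure D2:**
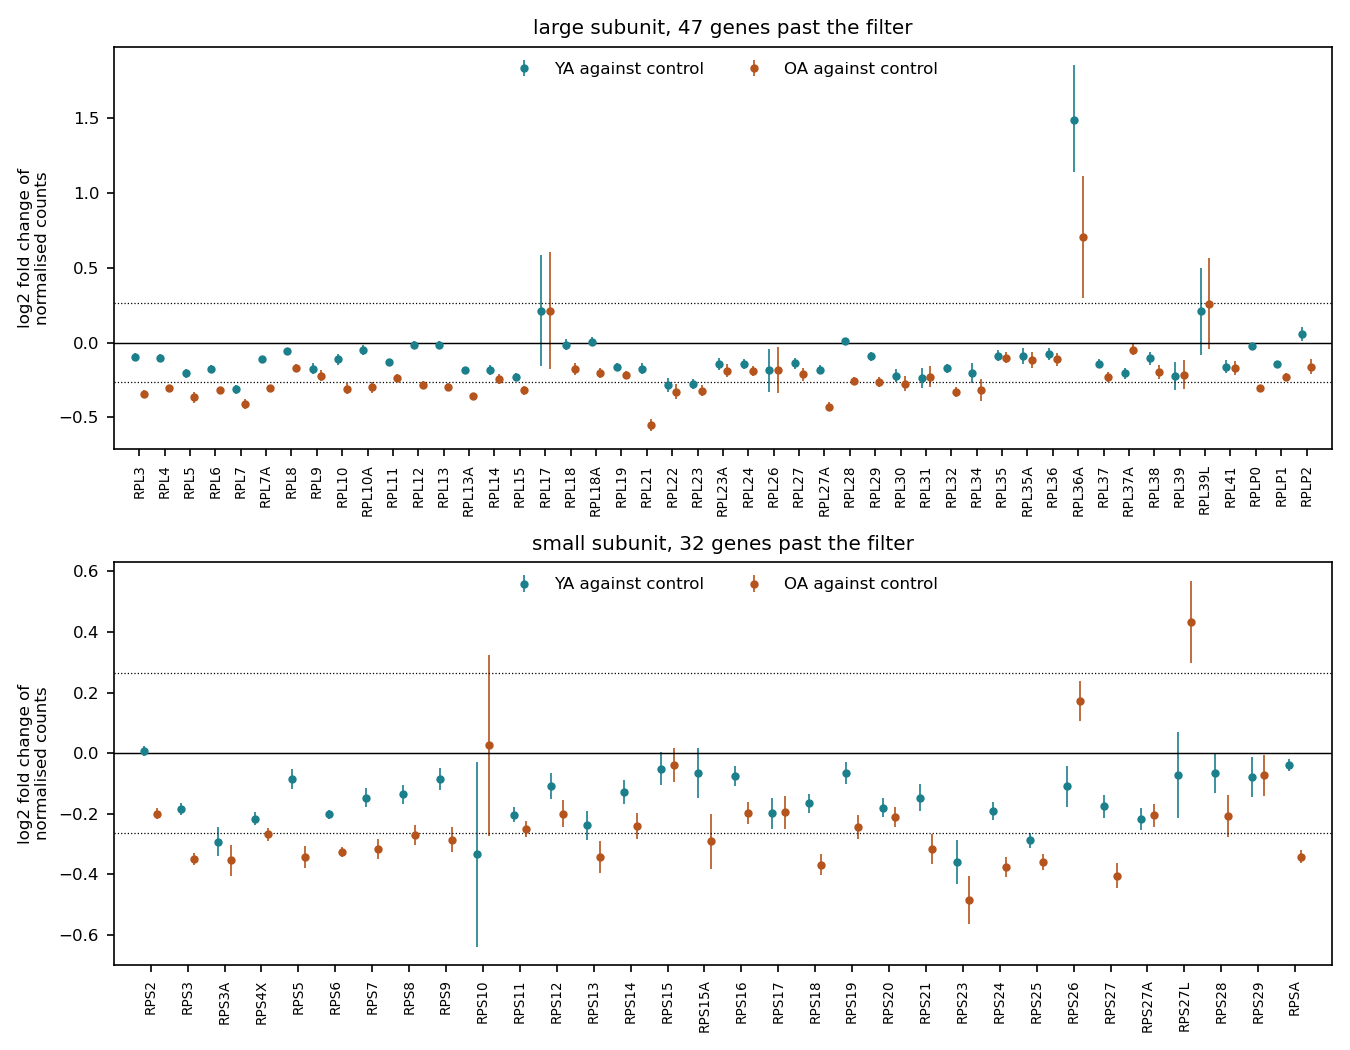
Log2 ratio of normalised counts to control, with nothing added, for each ribosomal protein gene past the filter, with YA and OA side by side, large subunit above and small subunit below (whiskers 95% counting intervals, dotted lines 1.2-fold; the vertical scales of the panels differ). Most genes lie below 0 with OA under YA, as for RPS23 at ratios of 0.779 and 0.714, while RPL36A, RPS26 and RPS27L lie above 0 in at least 1 library.

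RPL21, a large subunit protein, had the lowest ratio in OA. It had 12280, 10872 and 8384 normalised counts in control, YA and OA, with ratios of 0.683 (0.663 to 0.702) in OA and 0.885 (0.863 to 0.908) in YA. RPL27A had 19807, 17480 and 14722 normalised counts, with 0.743 (0.727 to 0.760) in OA and 0.883 in YA. RPS27, a zinc-finger protein of the small subunit, had 11610, 10275 and 8770, with 0.755 (0.734 to 0.777) in OA and 0.885 in YA. In each of these genes the OA library was the lowest and YA lay between it and control. RPS23 and RPL7, described above, completed the 5 lowest, RPL7 with 0.752 in OA.

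RPS27L, the copy of RPS27 known as a p53 target, went the other way. It had 790, 751 and 1066 normalised counts in control, YA and OA, so that OA was the highest and control and YA lay close together. Its ratio to control was 1.35 (1.23 to 1.48) in OA and 0.952 (0.862 to 1.05) in YA, the latter with an interval that included 1. RPS26, which lies at the exit of the mRNA channel and is mutated in some patients with Diamond-Blackfan anaemia, had 3602, 3338 and 4056 normalised counts. Its ratio was 1.13 (1.08 to 1.18) in OA and 0.927 (0.885 to 0.970) in YA, both within 1.2-fold. RPL39L had a ratio of 1.198 (0.971 to 1.48) in OA and was not called. RPL17 had 1.16 (0.886 to 1.52).

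Between the secretomes, ribosomal protein genes were mostly higher in YA. The ratio of YA to OA was above 1 in 66 of 79 genes, where 48.5% of all genes tested had such a ratio, and the median log2 fold change was 0.11 beside −0.01 over all genes. Calls were few: 7 of 79 (8.86%) were higher in YA against a background of 23.0%, and 3 (3.80%) were lower against a background of 21.5%. Among 4621 other genes with a mean of at least 1000, the shares were 11.9% higher and 16.9% lower. RPL36A led with 1.73 (1.39 to 2.16), followed by RPL21 with 1.30 (1.26 to 1.34). RPSA, a small subunit protein also known as the laminin receptor, had 39117, 38065 and 30870 normalised counts in control, YA and OA and a ratio of YA to OA of 1.23 (1.21 to 1.25). RPL13 had 25976, 25725 and 21138 and a ratio of 1.22. In both genes YA lay close to control and OA below. The remaining genes called higher were RPLP0, RPL12 and RPL28, the last at 1.203. The genes called lower in YA were RPS27L with 0.705 (0.640 to 0.775), RPS10 with 0.780 (0.626 to 0.970) and RPS26 with 0.823 (0.786 to 0.862). RPL37A, with 11971, 10396 and 11585 normalised counts, had a ratio of 0.897 (0.874 to 0.922), short of the call.

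The 3 stalk proteins, which recruit translation factors to the large subunit, did not move alike. RPLP0 had 49384, 48718 and 40038 normalised counts in control, YA and OA, with ratios of 0.987 (0.975 to 0.999) and 0.811 (0.800 to 0.822). RPLP1 had 31630, 28639 and 27025, with ratios of 0.905 and 0.854. RPLP2 had 7407, 7706 and 6627, with ratios of 1.04 in YA and 0.895 (0.865 to 0.926) in OA. RPL12, at the base of the stalk, had 32721, 32424 and 26893, with 0.991 in YA and 0.822 in OA. OA was the lowest library for all 4. In YA, RPLP0 and RPL12 lay close to control, RPLP1 below it and RPLP2 slightly above it.

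Outside the stalk, RPL3, RPL5, RPL10, RPL11, RPL22, RPL39 and RPL41 had ratios below 1 in both secretome libraries. RPL3, which reaches the peptidyl transferase centre, had 35746, 33509 and 28233 normalised counts in control, YA and OA and a ratio of 0.790 (0.777 to 0.803) in OA. RPL5 and RPL11, which with 5S RNA form the particle that binds MDM2, had ratios of 0.867 and 0.913 in YA and of 0.776 and 0.851 in OA, so that RPL5 and not RPL11 was called lower in OA. RPL10, which joins the subunit late in its assembly, had 13162, 12174 and 10638 normalised counts and 0.808 in OA. Other annotated genes on either strand overlap 55.5% of its exon bases, and those on its own strand 2.80%. RPL22 had 0.797 in OA. RPL39, a protein of the exit tunnel, had 1990, 1704 and 1715 normalised counts, with 0.856 in YA and 0.862 in OA, and RPL41 had 0.894 and 0.889. For these 2 very short genes YA and OA had near-equal ratios.

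In the small subunit, RPS3, a protein at the mRNA entry channel, had 44136, 38821 and 34631 normalised counts in control, YA and OA, with ratios of 0.880 (0.868 to 0.891) and 0.785 (0.773 to 0.796). RPS6 had 62873, 54641 and 50147, with 0.869 (0.859 to 0.879) and 0.798 (0.788 to 0.807). RPSA had ratios of 0.973 in YA and 0.789 in OA. All 3 were called lower in OA and not in YA, a difference between calls that was not tested. RPS4X, encoded on the X chromosome, had ratios of 0.861 and 0.831, RPS19, the gene most often mutated in Diamond-Blackfan anaemia, 0.955 and 0.844, and RPS27A, made as a fusion with ubiquitin, 0.860 and 0.867. Of these, RPS4X was called lower in OA.

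Large and small subunit genes differed little in their medians against control. In YA, 3 of 47 large (6.38%) and 4 of 32 small subunit genes (12.5%) past the filter were called lower. The share of all genes tested was 16.4%, and the large and small subunit medians were −0.14 and −0.15 on the log2 scale. In OA, 21 of 47 (44.7%) and 17 of 32 (53.1%) were called lower, beside 21.5% of all genes tested, with medians of −0.23 and −0.27. Between YA and OA, 6 of 47 large subunit genes (12.8%) were called higher in YA and 0 lower. Of 32 small subunit genes 1 (3.1%) was higher and 3 (9.4%) were lower. All these shares were under the 23.0% higher and 21.5% lower of all genes tested. The calls include RPL36A and RPS10, whose counts are uncertain. The difference of medians, large minus small, was 0.01 in YA, 0.04 in OA and −0.02 between YA and OA. The ratio of summed counts to control was 0.922 (0.919 to 0.925) for the large and 0.904 (0.901 to 0.907) for the small subunit in YA, and 0.829 (0.826 to 0.831) and 0.821 (0.818 to 0.825) in OA. In both libraries the small subunit sum was slightly lower, by more than counting error, and no test over libraries was possible.

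Single genes differed from each other by more than counting alone gives, but less than other well-counted genes did. Among the 73 genes with a mean of at least 1000 normalised counts, ratios to control ran from 0.779 (RPS23) to 1.04 (RPLP2) in YA and from 0.683 (RPL21) to 1.13 (RPS26) in OA. The SD of the log2 fold changes over these genes was 0.084 in YA and 0.107 in OA, while the median counting interval had a half-width of 0.034 and 0.036. Over the 4621 other genes with such a mean the SD was 0.245 in YA and 0.342 in OA. The interval of 49 genes in YA and 55 in OA left out the median of the set. Across these 73 genes the log2 fold change went with coding length in OA (Spearman rho −0.40, Pearson r −0.35) and hardly in YA (0.09 and 0.10). The points of each comparison come from the same 2 libraries, and coding length goes with other properties of a transcript.

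**Figure D3:**
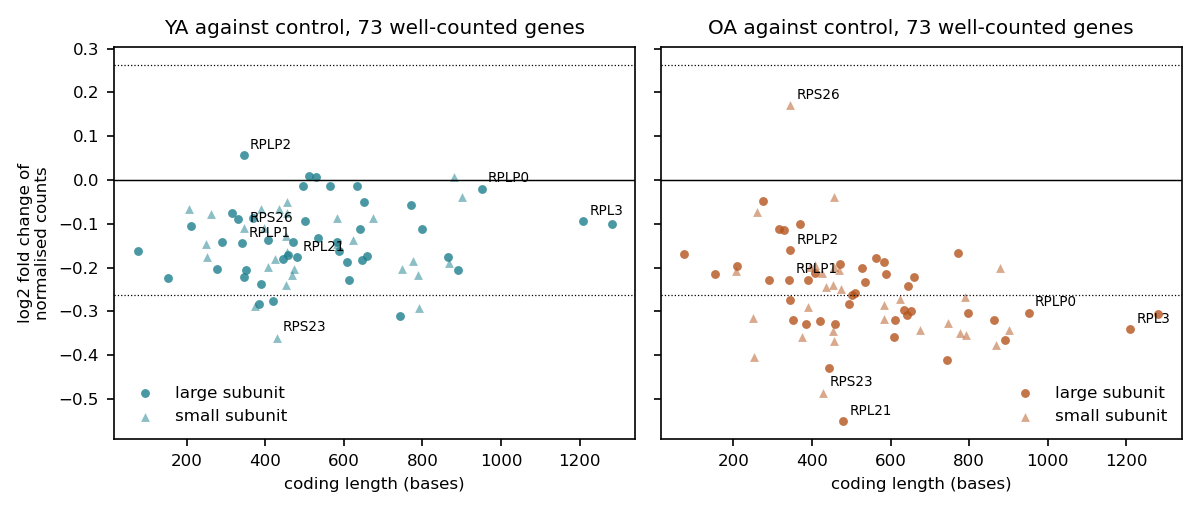
Log2 fold change of normalised counts against control by coding length in bases for the 73 well-counted ribosomal protein genes, YA on the left and OA on the right (circles large subunit, triangles small subunit, dotted lines 1.2-fold). Longer genes lie lower in OA (Spearman rho −0.40) and show no such slope in YA (0.09), with RPL21 lowest and RPS26 highest in OA.

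Other short and abundant transcripts did not share the lowering in OA, while in YA they too lay mostly below control. Among 281 other protein-coding genes with a mean of at least 1000 and transcripts of up to 1000 bases, the median log2 fold change was −0.09 in YA and 0.05 in OA, against −0.14 and −0.25 for the ribosomal protein genes. With genes divided into 10 classes of transcript length, and the median of the other genes of the same class subtracted, the ribosomal protein median was −0.079 in YA and −0.30 in OA.

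Ribosomal protein genes with and without a pyrimidine start had medians close to each other against control. The grouping rests on the exact start base listed, and RPL3, with a run of 4 bases, fell in the group without. It therefore need not separate TOP transcripts from others. Among ribosomal protein genes past the filter, the 46 with such a start had a median of −0.15 in YA and one of −0.26 in OA, and the 17 with a window but no such start −0.11 and −0.22. In OA 23 of the former and 8 of the latter were called lower (50% and 47.1%), beside 21.5% of all genes tested. In YA 5 of 46 (10.9%) and 0 of 17 were called lower, beside 16.4%. Higher in YA than in OA were 7 of 46 (15.2%) and 0 of 17, beside 23.0%. Both contrasts rest on few genes, with shares under those of all genes tested, and were not tested. Among other protein-coding genes tested, 691 had such a start, with a median of −0.01 in either comparison, beside −0.02 and 0.01 for the 8992 without.

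Translation factors of the TOP class, a list of 18 genes, lay low in OA like the ribosomal proteins. The list also holds HNRNPA1, NAP1L1 and TPT1, which are not translation factors themselves. Of the 17 past the filter, 3 (17.6%) were called lower in YA, beside 16.4% of all genes tested, and 9 (52.9%) in OA, beside 21.5%. NAP1L1 and TPT1 were among those called lower in both. All 17 had a mean of at least 1000. Among the 4621 genes with such a mean outside the ribosomal protein set, 8.33% were lower in YA and 12.1% in OA. None of the 17 was called higher in either library, and their medians were −0.12 and −0.32. TPT1, the translationally controlled tumour protein, had 16142, 12924 and 9770 normalised counts in control, YA and OA, with ratios of 0.801 (0.783 to 0.819) and 0.605 (0.590 to 0.621). EIF4B, a cofactor of the initiation helicase, had 25243, 20861 and 18143, with 0.826 and 0.719. EEF2, the translocation factor, had 89023, 88149 and 65930, with 0.990 (0.981 to 0.999) in YA and 0.741 (0.733 to 0.748) in OA, so that YA lay close to control and OA well below. EIF3K, an initiation factor subunit, had the highest ratio in OA with 1.04 (0.995 to 1.09). EEF1G, the gene below the filter, was listed at 0 in all 3 libraries, and 99.9% of its exon bases overlap AP002990.1 in GENCODE 29.

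The host genes of snoRNAs did not lie low. Of 12, 7 (58.3%) were called higher and none lower in YA, beside 17.4% and 16.4% of all genes tested, with a median of 0.32. In OA 3 (25%) were higher and 1 (8.33%) lower, beside 21.1% and 21.5%, with a median of 0.05. SNHG12 had 207, 476 and 383 normalised counts in control, YA and OA, with ratios of 2.30 (1.96 to 2.70) and 1.85 (1.55 to 2.20), and its start carries the 11-base pyrimidine run shown above. SNHG3 had 768, 1313 and 913, with 1.71 and 1.19. EPB41L4A-AS1 had 656, 671 and 410, with 1.02 in YA and 0.625 (0.549 to 0.710) in OA. These spliced host transcripts carry snoRNAs in their introns and are themselves mostly not translated into stable proteins.

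**Figure D4:**
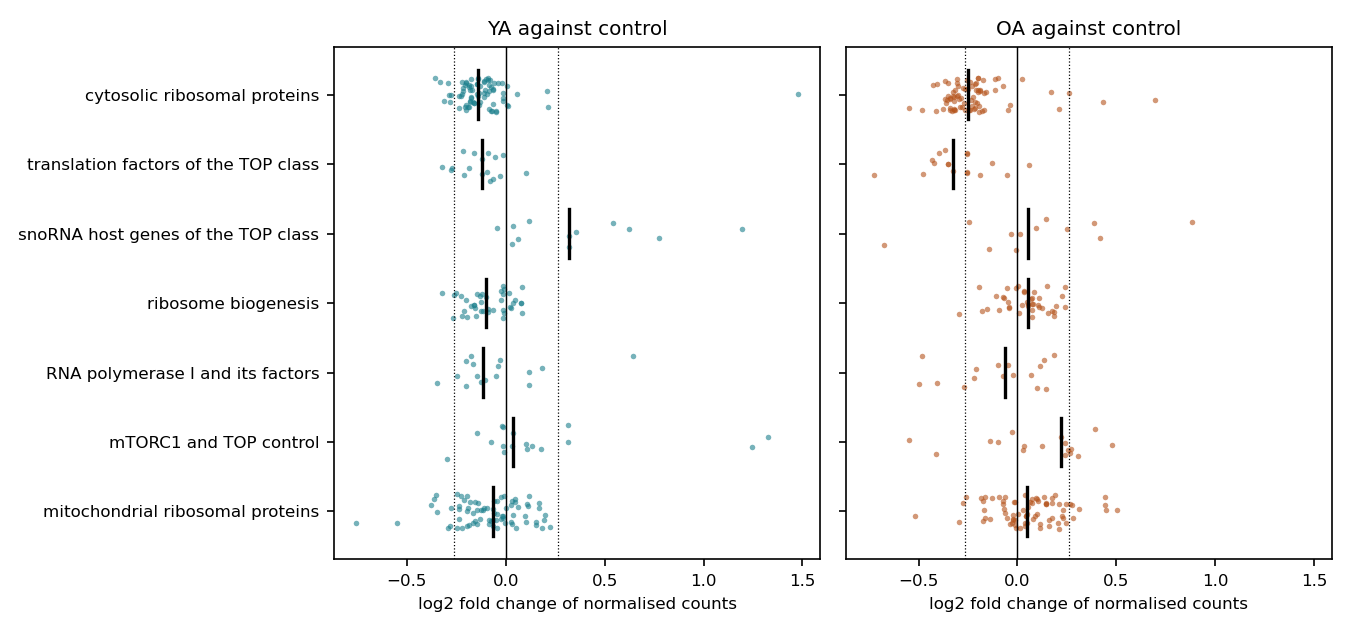
Log2 fold change of normalised counts against control per gene for ribosomal proteins and the other lists (points single genes, black bars medians, dotted lines 1.2-fold), YA on the left and OA on the right on the same scale. Ribosomal proteins (medians −0.14 and −0.25) and the translation factor list (−0.12 and −0.32) have medians left of 0 in both panels. That of the snoRNA host genes lies right of 0 in YA (0.32).

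Factors that build the ribosome stayed nearer to control than its proteins did in OA. Of 41 ribosome biogenesis genes none was called higher in either comparison with control, 2 (4.88%) were lower in YA and 1 (2.44%) in OA, beside 16.4% and 21.5% of all genes tested, with medians of −0.10 and 0.05. The 2 in YA were PNO1, a factor of small subunit assembly, with a ratio of 0.799 (0.704 to 0.908), and NCL, nucleolin, with 22904, 19037 and 24672 normalised counts in control, YA and OA and a ratio of 0.831 (0.816 to 0.847). In OA it was RRP12 with 0.816 (0.773 to 0.861). Of 16 genes of RNA polymerase I and its factors, 1 was higher and 1 lower in YA (6.25% each) and 4 (25%) were lower in OA, near the 21.5% of all genes tested, with medians of −0.12 and −0.06. TAF1C, a subunit of the initiation factor of this polymerase, had 653, 1020 and 707 and a ratio of 1.56 (1.42 to 1.72) in YA, and POLR1D, a polymerase subunit, had 2134, 1982 and 1513 and 0.709 (0.662 to 0.759) in OA.

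Of 17 genes of mTORC1 and TOP control, 4 (23.5%) were called higher and 1 (5.88%) lower in YA, beside 17.4% and 16.4% of all genes tested. In OA 5 (29.4%) were higher and 2 (11.8%) lower, beside 21.1% and 21.5%. The medians of the list were 0.03 and 0.22. SESN2 and DDIT4, stress-induced inhibitors of mTORC1, were the highest in YA. SESN2 had 367, 921 and 511 normalised counts in control, YA and OA, with ratios of 2.51 (2.23 to 2.83) and 1.39 (1.21 to 1.6). DDIT4 had 671, 1593 and 801, with 2.38 (2.17 to 2.60) and 1.19 (1.08 to 1.33). Both were thus highest in YA, and a link to the ribosomal protein genes was not tested. EIF4EBP2, a repressor of cap-dependent initiation, had the lowest ratio in both, with 2967, 2416 and 2032 normalised counts and ratios of 0.814 (0.772 to 0.858) and 0.685 (0.646 to 0.726). EIF4E, the cap-binding protein, had 1.31 (1.22 to 1.41) in OA.

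RPL22L1, the copy of RPL22 whose symbol the rule did not take, had 1748, 1614 and 1847 normalised counts in control, YA and OA. Its ratios to control were 0.924 (0.864 to 0.987) and 1.06 (0.988 to 1.13), so that in OA its ratio lay above 1 and that of RPL22 at 0.797. FAU, made as a fusion with a ubiquitin-like protein, had 3009, 2682 and 2905, with ratios of 0.891 (0.847 to 0.938) and 0.966 (0.916 to 1.02). Neither gene was past 1.2-fold in either library.

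Of 77 mitochondrial ribosomal protein genes past the filter, none was called higher and 9 (11.7%) were lower in YA, and 8 (10.4%) were higher and 3 (3.90%) lower in OA, all under the shares of all genes tested, with medians of −0.07 and 0.05. The cytosolic genes had medians of −0.14 and −0.25 in the same libraries. MRPS6 had 771, 456 and 905 normalised counts in control, YA and OA, with 0.591 (0.527 to 0.662) in YA and 1.17 in OA. MRPL57 had 700, 760 and 570, with 1.09 and 0.814 (0.726 to 0.913).

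Pseudogenes named after the ribosomal protein genes were counted apart from their parents. The table held 1030, together 0.127%, 0.112% and 0.118% of the counts of control, YA and OA, and 103 passed the filter at a median of 69.2 normalised counts. In YA, 53 of the 103 (51.5%) were called lower, beside 16.4% of all genes tested, and 6 higher, with a median of −0.28. In OA 26 (25.2%) were lower and 25 (24.3%) higher, near the 21.5% and 21.1% of all genes tested, with a median of −0.01. At these counts the counting interval lay below 1 for 34 of the 103 and above it for 2 in YA, and below 1 for 12 and above it for 10 in OA. Of all 14413 genes tested, it lay below 1 for 3686 and above it for 2975 in YA. In OA these numbers were 3565 and 3838. RPS2P5, the most counted, had 10150, 9501 and 8529 normalised counts, with ratios of 0.936 (0.911 to 0.962) and 0.840 (0.816 to 0.865). Its parent RPS2 had 53379, 53651 and 46447, with 1.01 and 0.870. Pseudogene counts came to 20.5% of the counts of RPS2 in control, 35.2% for RPL26, 30.0% for RPL36A, 20.9% for RPL17 and 18% for RPS10. Reads of these genes and of their copies may have been split.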

How the data were processed

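Poly(A) libraries of A375 cells (SureSelect, NovaSeq) were made by the study, 1 per group. The deposited values are raw counts per gene. The submitters' processing notes name hg38, STAR 2.5.1b, featureCounts and R 3.6.1, and the annotation release, the strand setting and the treatment of multi-mapped reads are not given in the sources used here. The study analysed these libraries with DESeq2. Here counts were normalised over the whole table by the median-of-ratios method (DESeq2 1.42.0 in R 4.3.3), with size factors of 1.06, 1.06 and 0.891 for control, YA and OA. Genes with a mean of at least 20 normalised counts were kept. Log2 fold changes used a pseudocount of 1, and 1.2-fold was read from the study's cutoff as a linear fold. Ratios carry 95% Clopper-Pearson intervals and shares 95% Wilson intervals (scipy 1.17.1), which cover counting error only, since no molecular identifiers are mentioned. With 1 library per group neither edgeR's quasi-likelihood test nor DESeq2's test could be run, and edgeR 4.0.16 served for TMM scaling alone. Library totals were 21448195, 21306558 and 18089008 counts. Positions, lengths and exon overlaps are from GENCODE 29, where 57433 of 58037 gene identifiers and all 81 ribosomal protein genes matched, and start windows are from RefSeq on GRCh38.p14. Gene symbols of 3 RNA polymerase I subunits were matched through older names. The fold changes and intervals were tested on simulated data. Alternatives were TMM and total-count scaling, other filters, pseudocounts and thresholds, added pseudogene counts, a length correction and other denominators.

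The genes and lists were chosen with earlier results of these data known. Named were ribosomal protein genes with set roles, the 5 highest and 5 lowest of each comparison, and the 2 highest and lowest of each other list, not all of which are printed. RPL23, RPL12, RPL29, RPL26, RPS2, RPS2P5, EEF1G, HNRNPA1, NAP1L1 and the single cell type markers were named after their values were seen. 1 further gene of the lists is not reported here.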

Additional observations from a re-analysis of the deposited data

Results flagged for a closer look

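RPLP2 and RPS26 had counting intervals on opposite sides of 1 in the secretome libraries, each set against the same control library. RPLP2 lay above control in YA (1.04, interval 1.01 to 1.07) and below it in OA (0.895, interval 0.865 to 0.926), and its ratio of YA to OA was 1.16 (1.12 to 1.2). RPS26 lay below control in YA (0.927) and above it in OA (1.13), and its ratio of YA to OA was 0.823 (0.786 to 0.862). With 1 library per group neither difference was tested beyond counting error.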

How the results depend on the processing

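No paired analysis was possible because each group is 1 library, and no value here has a replicate check. The count of genes lower in OA ranged from 38 to 39 under TMM and total-count scaling, a minimum mean of 100 or none, added pseudogene counts and a pseudocount of 5, and was 29 where the whole interval had to lie beyond 1.2-fold. That stricter rule left 2 genes lower in YA, and 4 higher and 1 lower in YA against OA. At 1.5-fold no gene was lower in YA or OA (0 each), 1 was higher in OA, and 1 was higher and 0 lower in YA against OA. Without a filter 3 genes were higher in YA. Subtracting the length classes moved the median log2 fold change to −0.079 in YA and 0.21 in YA against OA. Means in place of medians moved the difference between large and small subunit genes to 0.067 in YA and 0.051 in YA against OA, a set that includes RPL36A, and the cause was not tested. The share of counts was 6.70%, 6.15% and 5.52% in control, YA and OA with pseudogenes added, and 6.78%, 6.30% and 5.58% over protein-coding genes that are not mitochondrially encoded. The other lists kept their medians within counting error under both other scalings.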
